A study of Arabidopsis thaliana with 8 samples.

Results

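Single-list peaks are chromosome-arm peaks of PIF3 ChIP-seq whose summit only 1 of 4 replicate peak lists holds, although their intervals may overlap a peak of another list. They were chosen by the measured summit positions: a peak qualified when no summit of another list lay less than 100 bp from its own, and when its summit fell outside a pericentromeric window. These windows run from 12000 to 18500 kb on chromosome 1, 1500 to 7000 kb on chromosome 2, 11000 to 17000 kb on chromosome 3, 1500 to 6000 kb on chromosome 4 and 9000 to 15000 kb on chromosome 5. Of 6828 peaks in the 4 lists, 6344 lay on the arms, and 3756 of these (59.2%) were single-list peaks. The other 2588 arm peaks had a partner, a summit of another list less than 100 bp away, and are called partnered peaks.

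Whole Arabidopsis thaliana seedlings grown in the dark to an age of 2 d gave 8 ChIP-seq libraries, 4 biological replicates each of P3M and WT. P3M is a Col-0 line that expresses PIF3 with a 6xHis tag and 5 repeats of the MYC epitope from the 35S promoter, which is active in most tissues, in the pif3-3 null background, so that PIF3 is made from the transgene and not under its own promoter. WT carries no epitope and is the negative control for the anti-MYC antibody. Seeds of both genotypes had 3 h of white light and 15 min of far-red light at 21°C before darkness. Each list holds the peaks of 1 replicate, called in its P3M library over its own WT library, and the total reads of the libraries are not in the lists, so that the depth behind each list is unknown here. Per the methods of the study, the libraries of the first and second ChIP experiments were sequenced in 2 runs, whose reads were combined.

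PIF3 is a basic helix-loop-helix transcription factor that accumulates in darkness and is degraded after light activates phytochrome. Factors of this family bind as dimers to E-box elements, and PIF3 prefers the palindromic G-box (CACGTG) and the related PBE-box (CACATG). In dark-grown seedlings PIF3 and its relatives maintain elongation of the hypocotyl and hold back chloroplast development.

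A set of short sequences, most of them picked for a motif near the summit, gives examples of the DNA under these peaks. Each is the plus strand of the RefSeq TAIR10.1 genome for 30 bases on either side of the summit, 5′ to 3′, with every G-box and PBE-box in capitals. The first 6 are shown for a G-box near the summit and the next 6 for a PBE-box, which at GLK1 is read on both strands. The last 2 are shown because the highest-scoring summits of replicates 1 and 4 had neither motif within these 30 bases. The UBC8 summit of replicate 1 did have a PBE-box further out, 40.5 bp away. Of all 3756 single-list peaks, 2462 (65.5%) had neither motif less than 100 bp from the summit, so the set is not typical of them.
FHL, list 1, chr5:437270-437330: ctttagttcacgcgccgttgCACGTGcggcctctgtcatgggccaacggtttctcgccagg
DWF4, list 2, chr3:18814577-18814637: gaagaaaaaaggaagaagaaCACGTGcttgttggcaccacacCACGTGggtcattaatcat
AT5G55180, list 2, chr5:22390112-22390172: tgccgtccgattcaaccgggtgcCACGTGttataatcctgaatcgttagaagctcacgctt
CYP707A1, list 4, chr4:10521213-10521273: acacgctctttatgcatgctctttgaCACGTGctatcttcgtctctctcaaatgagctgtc
IAA30, list 4, chr3:22995550-22995610: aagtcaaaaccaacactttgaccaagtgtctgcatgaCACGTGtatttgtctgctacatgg
TPPG, list 4, chr4:11897114-11897174: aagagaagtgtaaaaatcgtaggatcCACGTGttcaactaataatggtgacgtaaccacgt
BIN2, list 4, chr4:10296286-10296346: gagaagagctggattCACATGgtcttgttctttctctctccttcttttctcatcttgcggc
GLK1, list 4, chr2:8853037-8853097: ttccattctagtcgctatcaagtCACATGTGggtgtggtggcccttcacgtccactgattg
RGA1, list 4, chr2:257441-257501: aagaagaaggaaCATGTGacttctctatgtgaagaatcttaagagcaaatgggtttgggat
PYL6, list 4, chr2:16844566-16844626: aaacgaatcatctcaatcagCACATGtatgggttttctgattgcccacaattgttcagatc
LHCA2, list 4, chr3:22744498-22744558: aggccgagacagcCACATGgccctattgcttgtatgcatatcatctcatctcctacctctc
BBX20, list 4, chr4:18206549-18206609: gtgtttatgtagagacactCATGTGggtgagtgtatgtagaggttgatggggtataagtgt
UBC8, list 1, chr5:16677162-16677222: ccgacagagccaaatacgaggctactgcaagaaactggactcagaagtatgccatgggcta
PIF3, list 4, chr1:3077449-3077509: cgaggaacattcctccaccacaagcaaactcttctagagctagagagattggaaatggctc

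The lists differed widely in how many single-list peaks they held. Replicate 1 had 187 among 643 arm peaks (29.1%) and replicate 2 had 1567 among 2350 (66.7%). Replicate 3 had 51 among 466 (10.9%) and replicate 4 had 1951 among 2885 (67.6%). The longest lists, of replicates 2 and 4, held most of them. Partnered peaks numbered 456, 783, 415 and 934 in replicates 1 to 4, a narrower spread than that of the single-list peaks. Whether a peak was single-list depended on the other lists, and without the list of replicate 4 the single-list peaks of replicate 3 numbered 175.

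**Figure D1:**
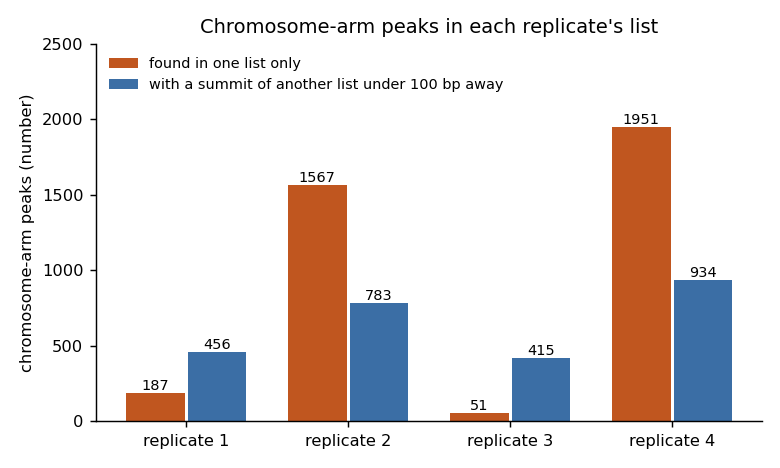
Number of chromosome-arm peaks in each replicate's list, single-list peaks to the left of partnered peaks. Replicates 2 and 4 hold 1567 and 1951 single-list peaks, against 187 and 51 in replicates 1 and 3.

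The deposited values of single-list peaks were low within their own lists. They come from the same peak calls as the choice of the peaks and are given as a description, with no test. The score is -10 times the log10 of the peak caller's p-value. The median score in single-list peaks was 60.7, 65.6, 61.0 and 85.5 in replicates 1 to 4, against 87.5, 95.2, 88.5 and 218 in partnered peaks. The median count of P3M tags in single-list peaks was 80, 107, 121 and 162 in replicates 1 to 4, against 92, 118, 167 and 279.5 in partnered peaks. Medians of single-list peaks were thus lower in every list, while the ranges of the 2 classes overlapped in all 4.

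The fold over the local background of the peak caller had a median of 3.61 in single-list and 5.45 in partnered peaks of replicate 1, and of 3.71 and 5.01 in replicate 2. In replicate 3 these medians were 2.99 and 4.54, and in replicate 4 they were 4.35 and 6.18. Peak length differed less, with medians of 509 against 503.5 bp, 541 against 527 bp, 526 against 555 bp and 563 against 660.5 bp in replicates 1 to 4. A score of 100 or more, which is a p-value of 1e-10 or lower, was reached by 12 single-list peaks in the list of replicate 1, by 183 in that of replicate 2, and by 7 and 782 in those of replicates 3 and 4. These are 6.42%, 11.7%, 13.7% and 40.1% of single-list peaks in replicates 1 to 4, against 43.0%, 46.6%, 42.9% and 79.8% of partnered peaks. The false discovery rate was 100% for all single-list peaks of replicates 1 and 3 and for 1645 of 1951 in replicate 4, against 434 of 456, 414 of 415 and 368 of 934 partnered peaks of replicates 1, 3 and 4. It was under 5% for 7 single-list peaks of replicate 2 and 6 of replicate 4, against 102 and 162 partnered peaks.

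**Figure D2:**
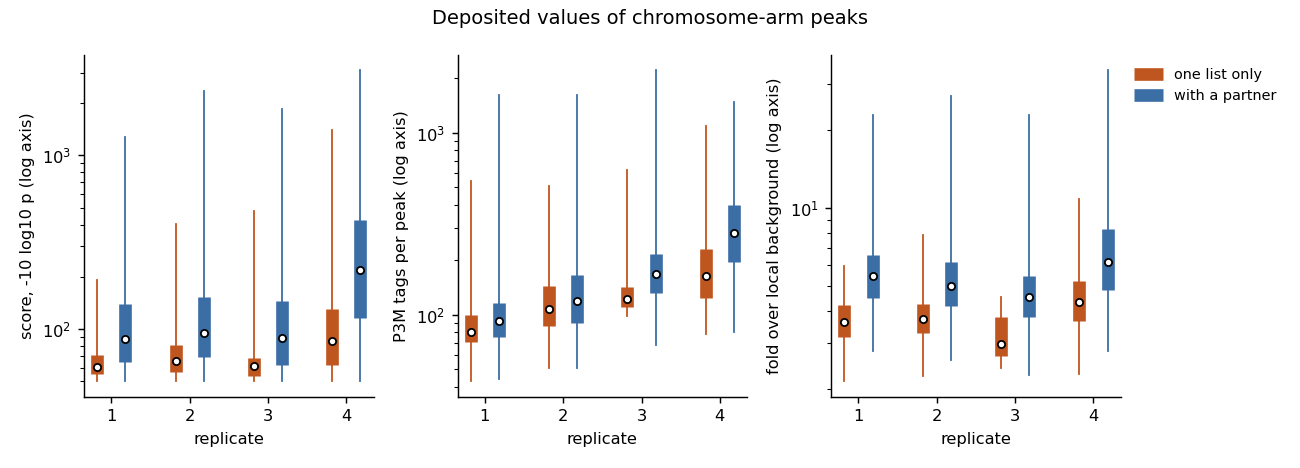
Score, P3M tags and fold over local background of chromosome-arm peaks on log axes, with thin lines from the lowest to the highest value, thick bars between the quartiles and open circles at the medians. In each replicate the median of single-list peaks, on the left, lies below that of partnered peaks.

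Most single-list peaks were far from any summit of another list. The median distance to the nearest one was 5766, 9393, 1194 and 9072 bp in the lists of replicates 1 to 4. Of all 3756, 2404 (64.0%) had no other summit within 5 kb, and 103 had one between 100 and 200 bp away. The peak intervals overlapped an interval of another list by at least 1 bp for 26 of the 187 of replicate 1 (13.9%) and 90 of the 1567 of replicate 2 (5.74%). The same held for 19 of the 51 of replicate 3 (37.3%) and 84 of the 1951 of replicate 4 (4.31%). The overlapping lists were most often those of replicates 4 and 2, in 116 and 83 cases.

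The limit of 100 bp passed through a continuous range of distances. The 27 single-list peaks with the nearest summit at least 100 bp and under 120 bp away all overlapped a peak of another list, with a median score of 87.7 and a G-box in 8. The 39 partnered peaks with the nearest summit at least 80 bp and under 100 bp away also all overlapped one, with a median score of 82.2 and a G-box in 21.

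The highest-scoring single-list peaks were largely of this kind. Of the 12 that lead the lists by score, 3 in each, 9 overlapped a peak of another list and 8 had another summit less than 350 bp away. A peak in the coding sequence of PIF3 itself led both replicate 3 and replicate 4. Its summits, at 3077591 and 3077479 on chromosome 1, were 112 bp apart. It held 625 tags with a score of 481 in replicate 3 and 1031 tags with a score of 1410 in replicate 4, and a further peak of replicate 4 with a score of 76.0 lay in the coding sequence 1487 bp from the nearest summit of another list. No peak of replicates 1 and 2 lay within 5 kb of the gene. P3M seedlings carry a PIF3 transgene, and reads of the transgene and of the PIF3 locus cannot be told apart in these lists. No G-box or PBE-box lay within 100 bp of either leading summit.

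In replicate 1 the leading peaks lay in the coding sequence of UBC8, a ubiquitin-conjugating enzyme gene, with 237 tags and a score of 192, in the UTR of AT4G16490, with 185 tags and a score of 143, and 1463 bp upstream of PIP2A, a plasma membrane aquaporin gene, with 108 tags and a score of 140. Within 100 bp of the summit, the UBC8 peak had a PBE-box, the AT4G16490 peak both motifs and the PIP2A peak a G-box. UTRs at either end of a gene were not told apart here or below. In replicate 2 the first lay 796 bp upstream of IAA16, an Aux/IAA repressor of auxin responses, with 364 tags, a score of 401 and neither motif within 100 bp. The others of replicate 2 lay 1886 bp upstream of the non-coding gene AT2G40008, where all 3 other lists had a summit 118 to 132 bp away, and 54 bp upstream of ACP1, an acyl carrier protein gene, with a G-box and a PBE-box. After the PIF3 peak, replicate 3 had peaks 2418 bp upstream of BBX21, a B-box regulator of photomorphogenesis, and 510 bp upstream of SAUR24, an auxin-responsive gene. At BBX21 all 3 other lists had a partnered summit 227 to 247 bp away. After its PIF3 peak, replicate 4 had peaks 33 bp upstream of AT2G18090, with a G-box, and in the UTR of BIN2, the GSK3-like kinase that represses brassinosteroid signaling. At AT2G18090 all 3 other lists had a partnered summit 117 to 153 bp away. The BIN2 peak of replicate 4 held 780 tags with a score of 687, and its sequence above shows the PBE-box 12.5 bp from the summit. Replicate 2 had a single-list peak in the same UTR, 148 bp away, with 333 tags and a score of 177.

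The G-box was found less often at single-list peaks than at partnered peaks of all 4 replicates, and more often than in the flanking DNA in replicates 1, 2 and 4, as the comparison of 6-base sequences shows. It lay less than 100 bp from the summit in 50 of 187 single-list peaks of replicate 1 (26.7%, exact 95% interval 20.5 to 33.7) and in 61.2% of partnered peaks (odds ratio 0.232, Fisher's exact adjusted p = 2e-15). In replicate 2 the shares were 14.6% (12.8 to 16.4) and 53.1% (odds ratio 0.150, Fisher's exact adjusted p = 4.7e-83). In replicate 3 they were 9.80% (3.26 to 21.4) and 52.5% (odds ratio 0.0982, Fisher's exact adjusted p = 1.6e-09). In replicate 4 they were 19.8% (18.1 to 21.7) and 49.9% (odds ratio 0.249, Fisher's exact adjusted p = 5.5e-59). These tests were two-sided and adjusted over 12, for 3 motif classes in 4 lists, and they treat the peaks of a list as independent although they come from 1 library pair. Cut into adjoining tiles that reach 100 bp to either side of a centre, the chromosome arms held a G-box in 2.45% of tiles, and windows centred 500 bp to either side of single-list summits held one in 2.46 to 3.92%.

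The PBE-box differed less between the classes. It was present in 26.2% of single-list and 38.8% of partnered peaks in replicate 1 (Fisher's exact adjusted p = 0.0029), in 15.3% and 34.4% in replicate 2 (Fisher's exact adjusted p = 1e-24) and in 22.7% and 34.2% in replicate 4 (Fisher's exact adjusted p = 1.4e-10). In replicate 3 the shares of 25.5% and 39.5% did not pass the test (Fisher's exact adjusted p = 0.066). With only scores of 100 or more in every list, the difference in replicates 1 and 4 did not pass it either (Fisher's exact adjusted p = 0.39 and 0.084). The call was also lost in replicate 4 with equal numbers of best-scoring peaks and in replicate 1 with intergenic peaks alone (Fisher's exact adjusted p = 0.52 and 0.29), and replicate 3 passed without the list of replicate 2 (Fisher's exact adjusted p = 0.029). The arm tiles held a PBE-box in 9.29% of cases. Both motifs were missing from 101 single-list peaks of replicate 1 (54.0%) and 1135 of replicate 2 (72.4%), and from 34 of replicate 3 (66.7%) and 1192 of replicate 4 (61.1%).

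**Figure D3:**
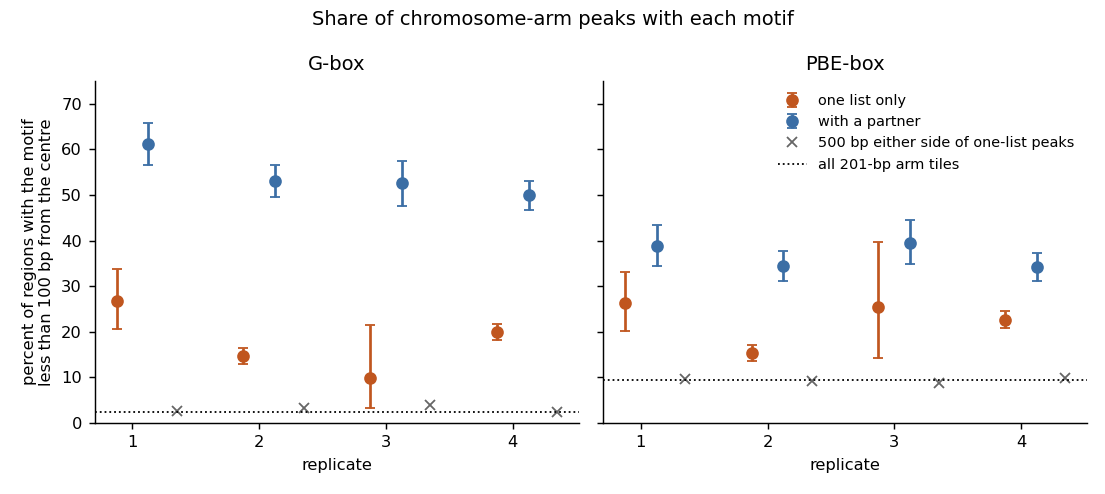
Percent of chromosome-arm peaks with a G-box or a PBE-box less than 100 bp from the summit, with exact 95% intervals, for single-list peaks and partnered peaks of each replicate. Crosses give the windows 500 bp to either side of single-list summits, and the dotted line all arm tiles, at 2.45% (G-box) and 9.29% (PBE-box).

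Where present, the motifs were densest near the summit. The nearest G-box lay at a median distance of 26.5 bp in single-list peaks of replicate 1 and 16.5 bp in partnered ones, at 32.5 and 19.5 bp in replicate 2 and at 22.5 and 16.5 bp in replicate 4. Only 5 single-list peaks of replicate 3 had one. In replicate 4 the 50-bp bins on either side of the summit held 7.74 and 10.0 G-boxes per 100 single-list peaks, and the bins that begin 250 bp before and 200 bp after it held 0.666 each. In replicate 2 the summit bins held 5.42 and 6.06. More than 1 G-box was found in 113 single-list peaks and at least 3 in 10. The most in any of them was 3, found in 7 peaks of replicate 4 and 3 peaks of replicate 2. The highest-scoring of the 7 lay 664 bp upstream of TPPG, a trehalose phosphate phosphatase gene, with 334 tags. The highest-scoring of the 3 lay in the coding sequence of AT5G55180, with 145 tags.

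**Figure D4:**
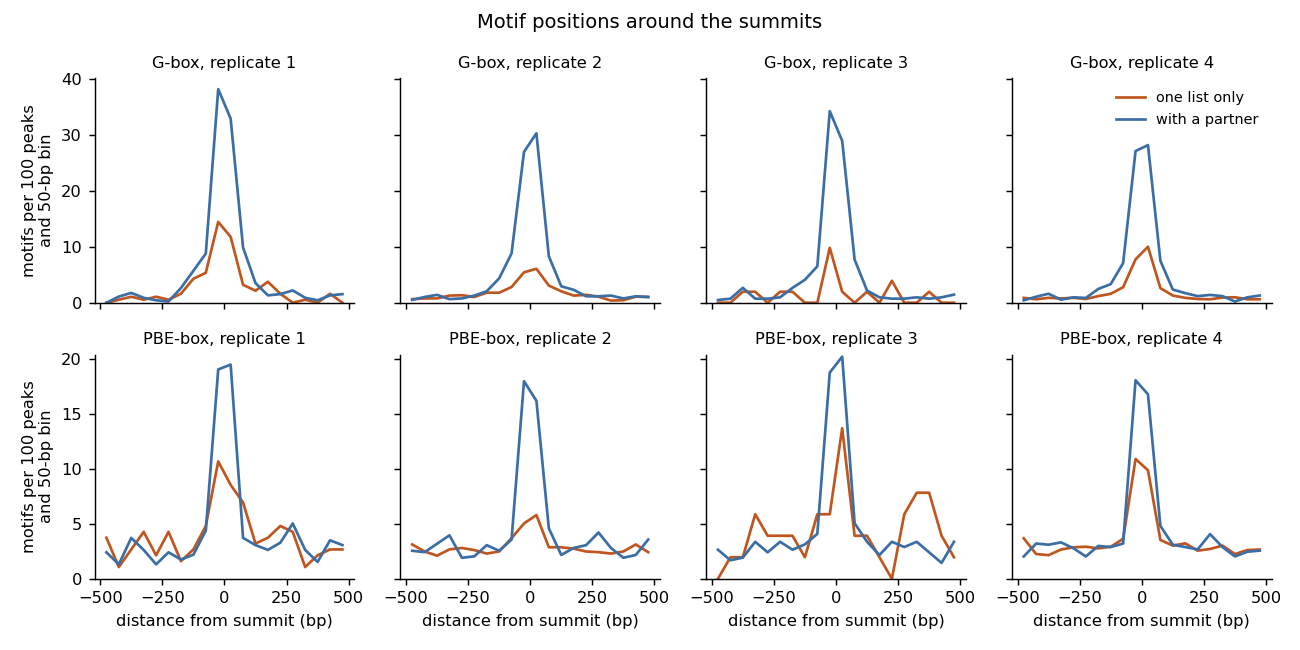
G-boxes and PBE-boxes per 100 peaks in 50-bp bins of distance from the summit, out to 500 bp, for single-list and partnered peaks of each replicate. Both classes peak at the summit, and within 100 bp of it the single-list curve of the G-box is lower in all 4 replicates.

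A score of 100 or more went with a higher share of G-boxes among single-list peaks of the longest lists. In replicate 2 the share was 24.0% of 183 peaks with such a score and 13.3% of 1384 others (odds ratio 2.06, Fisher's exact adjusted p = 0.00061). In replicate 4 it was 23.9% of 782 and 17.1% of 1169 (odds ratio 1.52, Fisher's exact adjusted p = 0.00061). Among intergenic peaks alone, a restriction chosen after seeing the data, neither difference passed the test (Fisher's exact adjusted p = 0.15 and 0.061). The differences in replicates 1 and 3, with 12 and 7 such peaks, did not pass it either (Fisher's exact adjusted p = 0.12 and 0.54). The difference in replicate 1 did pass when the list of replicate 2, 3 or 4 was left out (Fisher's exact adjusted p = 0.03, 0.024 and 0.0025). Leaving out a list also changes which peaks are single-list. In bands of score, chosen after seeing the data and not tested, the values of the classes differed too: with scores from 100 to 200 a G-box was in 23.7% of 173 single-list and 53.3% of 242 partnered peaks of replicate 2, and in 23.5% of 605 and 45.1% of 246 in replicate 4.

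The G-box share was also compared between single-list peaks that overlap a peak interval of another list and those that do not. It was 26.9% of 26 overlapping and 26.7% of 161 other peaks in replicate 1, 15.6% and 14.5% in replicate 2, and 21.1% and 3.13% in replicate 3. In replicate 4 a G-box was at 21 of 84 overlapping peaks and at 19.6% of the others. None of these differences passed the test (Fisher's exact adjusted p from 0.23 to 1), and the overlapping groups held only 19 to 90 peaks. By the choice of the peaks, an overlapping peak had its summit at least 100 bp from any summit of the other list. The G-box was counted less than 100 bp from the peak's own summit, so the test cannot separate overlap from this displacement. With partners redefined as summits under 50 bp away, all 4 differences passed it (Fisher's exact adjusted p from 4.8e-06 to 0.014), and without the list of replicate 2 that of replicate 4 did (23.6 percentage points, Fisher's exact adjusted p = 0.0066). The limit of 50 bp counts as single-list some peaks that are partnered elsewhere here, with a summit at least 50 bp and under 100 bp away. The 39 of these at least 80 bp away all overlapped another list, and 21 had a G-box.

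Single-list peaks lay in genes more often than partnered peaks did. Their summits were intergenic in 36.9% of cases in replicate 1, against 74.3% of partnered peaks (Fisher's exact adjusted p = 1.9e-18), and in 33.0% against 72.4% in replicate 2 (Fisher's exact adjusted p = 8.6e-74). In replicate 3 the shares were 47.1% and 72.3% (Fisher's exact adjusted p = 0.00056) and in replicate 4 they were 65.1% and 72.5% (Fisher's exact adjusted p = 0.0001). Intergenic DNA makes up 31.6% of the arms. When only peaks with a score of 100 or more were used in every list, the difference in replicates 1, 3 and 4 no longer passed the test (Fisher's exact adjusted p = 0.37, 1 and 0.44).

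Coding sequence held many of these summits in replicates 1 and 2. In replicate 1 it held 81 single-list summits (43.3%) and 4.82% of partnered ones, and in replicate 2 it held 627 (40.0%) and 3.70%. In replicates 3 and 4 it held 23.5% and 3.37%, and 6.15% and 3.96%. The test of this class was chosen after seeing the data (Fisher's exact adjusted p = 2.5e-30, 1.6e-93, 3.3e-06 and 0.018 in replicates 1 to 4). Coding sequence is 33.9% of the arm DNA. The median GC content within 100 bp of the summit was 42.3%, 41.8%, 37.3% and 35.8% in single-list peaks of replicates 1 to 4, against 40.3%, 39.8%, 37.8% and 38.3% in partnered peaks, and its part in the result was not tested. Nor was that of the 2 combined sequencing runs of replicates 1 and 2.

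The G-box share at coding-sequence and intergenic summits is given as a description, with no test. It was 9.88% of the 81 coding-sequence peaks and 43.5% of the 69 intergenic peaks of replicate 1, and 8.45% of 627 and 22.2% of 517 in replicate 2. Within intergenic peaks alone, a restriction chosen after seeing the data, single-list peaks still held fewer G-boxes than partnered ones: 43.5% against 62.8% in replicate 1 (Fisher's exact adjusted p = 0.0045), 22.2% against 55.2% in replicate 2, 12.5% against 54.7% in replicate 3 and 21.2% against 51.7% in replicate 4 (Fisher's exact adjusted p at most 8.4e-05 in the last 3).

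**Figure D5:**
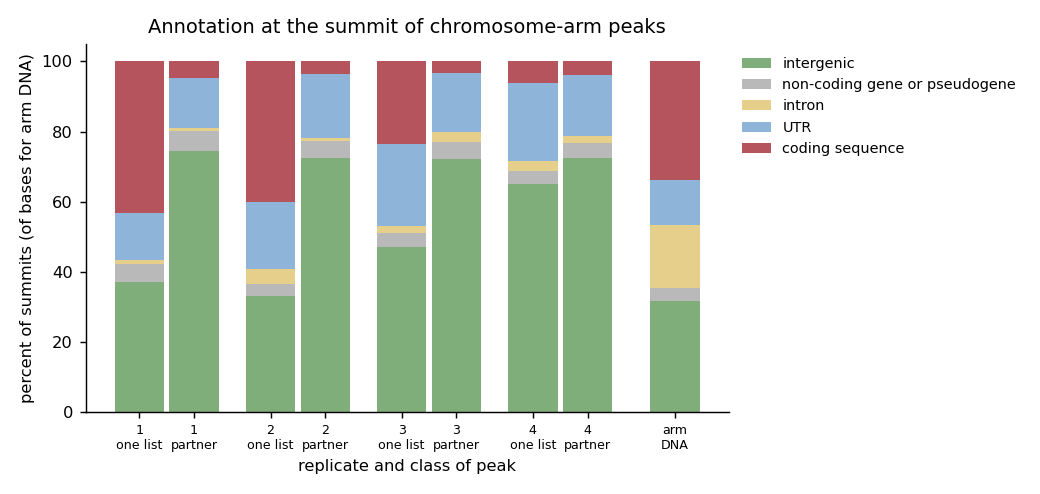
Annotation at the summit of chromosome-arm peaks as percent of peaks, single-list peaks to the left of partnered peaks in each replicate, with the share of arm bases in the last bar. Coding sequence holds 43.3% and 40.0% of single-list summits in replicates 1 and 2, against 4.82% and 3.70% of partnered ones.

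All strand-symmetric sequences of 6 bases were then compared between windows of 100 bp to either side of single-list summits and equal windows centred 500 bp away on each side. In replicate 1, 4.66% of them were more frequent at the summits (Fisher's exact test, adjusted p under 0.05), and CACGTG ranked first, in 26.7% of windows and 2.14% of flanks (Fisher's exact adjusted p = 3.3e-15). In replicate 4, 28.1% were more frequent and CACGTG again ranked first, in 19.8% against 2.41% (Fisher's exact adjusted p = 3.1e-106). In replicate 2, 41.9% were more frequent. There CACGTG ranked behind GGCCCA, in 16.0% of windows and 2.81% of flanks, and ATGGGC, in 16.7% and 3.86%. In replicate 3, with 51 peaks, 0% passed the adjusted threshold, and the smallest Fisher's exact adjusted p was 0.22. The shares of 4.66%, 41.9% and 28.1% in replicates 1, 2 and 4 stand for 97, 871 and 584 sequences. By the same test, sequences less frequent at the summits than in the flanks numbered 92, 316 and 329 in replicates 1, 2 and 4. They included sequences of A and T alone, such as TAAAAA in replicate 1 (rank 2, 16.0% of windows and 44.1% of flanks). In replicate 2 ATATAA, at rank 4, was in 13.5% and 29.5%. The part of base composition in these shares and counts was not tested. The E-box has 10 variants of the form CANNTG, of which 2, 4 and 5 were more frequent at the summits of replicates 1, 2 and 4. Among all 6-base sequences the shares more frequent there were 4.66%, 41.9% and 28.1%. The 4 of 10 variants in replicate 2 thus did not exceed the share of all sequences. Whether E-box variants differed from all sequences was not tested.

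GGCCCA and AGCCCA are, read on the other strand, TGGGCC and TGGGCT, the forms of the site II element, which TCP transcription factors bind in promoters of ribosomal protein and other growth genes. Its shares were chosen after seeing the data and are given with no test. A site II element lay less than 100 bp from 23.5% of single-list and 28.7% of partnered summits in replicate 2, and from 20.2% and 26.6% in replicate 4. In replicate 1 the shares were 20.3% and 30.3%, and in replicate 3 they were 5.88% and 25.5%. The arm tiles held one in 7.29% of cases. Of all single-list peaks, 550 (14.6%) had a site II element and neither a G-box nor a PBE-box, and 1912 (50.9%) had none of these elements.

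Set directly against partnered windows, a comparison chosen after seeing the data, the G-box was the sequence that separated the classes most in every list. The share of sequences less frequent in single-list windows was 1.78%, 8.85%, 0.0962% and 3.17% in replicates 1 to 4, and CACGTG ranked first each time. The share more frequent in them was 0.817%, 12.8%, 0% and 1.35% in replicates 1 to 4. GGCCCA was less frequent in single-list windows of replicate 1 (9.63% against 20.6%, Fisher's exact adjusted p = 0.04) and replicate 4 (11.1% against 17.6%, Fisher's exact adjusted p = 0.00023). It did not pass the test in replicate 2 (16.0% against 20.1%, Fisher's exact adjusted p = 0.063) or replicate 3 (3.92% against 17.3%, Fisher's exact adjusted p = 0.79). AGCCCA did not pass it in replicate 4 (12.5% against 13.0%, Fisher's exact adjusted p = 0.94).

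A gene was counted as next to a peak when its transcription start lay within 5 kb of an intergenic summit, facing it, with no other annotated gene between. Of 1881 intergenic single-list peaks, 639 lay between the starts of 2 genes, 1055 had 1 such gene and 187 had none. They were next to 2069 genes, which is 5.46% of the 37899 annotated nuclear genes, and to 1853 protein-coding genes, which is 6.75% of 27444. Replicates 1 to 4 contributed 89, 630, 30 and 1436 genes. The median distance to the start was 935 bp. Genes that held a single-list summit numbered 1864 of the 37899, and some genes were in both counts. Of the 2069 genes, 196 (9.47%) were also next to a partnered peak, beside 848 of all 37899 annotated nuclear genes. Single-list peaks of 2 or more lists were next to 112 of the 2069. Neither overlap was tested.

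Among 350 genes of 17 lists of light, hormone and growth genes, 68 (19.4%) were next to a single-list peak, beside 6.75% of all protein-coding genes. The lists were drawn up with results of these data known, and no enrichment was tested. Genes that only held a summit were not counted, and 1 of the 9 photoreceptors was such a gene. The count was 9 of 25 for PIF3 relatives and other bHLH genes, 7 of 24 for light signaling regulators, 7 of 20 for ethylene, 7 of 24 for abscisic acid, 3 of 10 for HD-Zip II and 0 of 9 for photoreceptors. It was 4 of 28 for Aux/IAA, 6 of 34 for auxin synthesis and transport, 4 of 22 for gibberellin, 3 of 17 for brassinosteroid, 1 of 18 for cytokinin and 3 of 20 for the clock. The remaining lists had 2 of 15 for B-box, 4 of 30 for chlorophyll, carotenoid and photosystem genes, 5 of 22 for cell wall growth, 2 of 17 for drought and cold and 1 of 15 for reference genes.

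In light signaling, FHL, which carries phytochrome A into the nucleus, had a peak of replicate 1 that was 65 bp upstream, with 136 tags, a score of 131 and 2 G-boxes, the nearer 7.5 bp from the summit. GLK1, a regulator of chloroplast development, had a peak of replicate 4 2235 bp upstream, with 243 tags, a score of 140 and a PBE-box 2.5 bp away. GNC, a GATA factor that promotes chlorophyll synthesis, had one 536 bp upstream in replicate 4, with 150 tags, a score of 191 and a fold of 9.07. BBX20 held a peak of replicate 4 in its UTR, with 208 tags, a score of 208 and a PBE-box. SPA1, a partner of the COP1 ubiquitin ligase, was next to single-list peaks of replicates 2 and 4, with scores of 132 and 76.5, whose summits were 176 bp apart.

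Among relatives of PIF3, PIF1, which also represses seed germination, had a peak of replicate 4 3653 bp upstream, with 190 tags, a score of 158 and a PBE-box. PAR2, an atypical bHLH factor that restrains elongation, had 3 peaks of replicate 4, at 971, 2051 and 2722 bp, with scores of 229, 189 and 136. The one at 2051 bp had neither motif within 100 bp of its summit. PRE5 had one at 335 bp with a score of 117, and BIM1, a brassinosteroid-signaling bHLH gene, one at 1407 bp with 2 G-boxes and a score of 116.

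In the hormone lists, DWF4, a rate-limiting enzyme of brassinosteroid synthesis, held a peak of replicate 2 in its UTR, with 234 tags, a score of 138 and the G-box pair printed above. DWF4 was also next to single-list peaks of replicates 1 and 2 that were 105 bp apart, 337 and 442 bp upstream of its start. The UTR summit lay inside the gene, 3135 bp from the nearer of these 2 summits, and so was not close to the start. ROT3, a brassinosteroid hydroxylase, held one in an intron, with 152 tags and a score of 146. BRI1, the brassinosteroid receptor, held a peak of replicate 4 in its UTR, with a score of 234. RGA1, a DELLA repressor of gibberellin responses, held one in its UTR, with 199 tags and a score of 180, and the receptor gene GID1A had one 1313 bp upstream with a score of 103.

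In the abscisic acid list, CYP707A1, which inactivates the hormone, had a peak of replicate 4 16 bp upstream with a G-box 1.5 bp from the summit, 129 tags and a score of 108. ABI3, a seed maturation factor, had one at 3338 bp with both motifs and a score of 170, and PYL6, a receptor, held one in its UTR (end of the gene not told apart) with a score of 121. In the auxin and HD-Zip II lists, IAA30 had a peak 106 bp upstream with a G-box and a score of 101, ARF6 one at 4773 bp with a score of 106 and HAT9 one at 4311 bp with a score of 235, all in replicate 4. LHCA2, an antenna protein of photosystem I, had one at 986 bp with 338 tags and a score of 146, and ZDS, a carotenoid desaturase, one at 1370 bp with a score of 117. COR47, a dehydrin, held one in its UTR with 288 tags and a score of 132.

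Other genes had single-list peaks of 2 lists next to them. LAX3, an auxin influx carrier, had summits of replicates 1 and 2 that were 116 bp apart, with scores of 78.3 and 51.8. HLS1, which controls the apical hook, had summits of replicates 2 and 4 that were 129 bp apart, with scores of 50.9 and 163. BBX21, RBCS1A and XTH30 had summits 1265 to 1616 bp apart, which included a score of 186 in replicate 4 at RBCS1A, the gene of a small subunit of Rubisco. Of the listed genes named here, BIM1, DWF4, BRI1, IAA30 and BBX21 were also next to a partnered peak.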

How the data were processed

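The data were 4 lists of ChIP-seq peaks, 1 per biological replicate. Per the labels and methods, reads were processed with CASAVA 1.7.0, aligned to TAIR9 with Bowtie 0.12.7 and called with MACS 1.4.0rc2, each P3M library against its WT control. The count of tags, the score, the fold over local background (a ratio) and the false discovery rate in percent were deposited by the authors and used unscaled. Sequence and genes came from RefSeq TAIR10.1; for 1992 of 1995 peaks, summit-to-G-box distances matched those listed by the study to 3 bp. Motif centres less than 100 bp from the summit counted. Shares were compared with two-sided Fisher's exact tests, Benjamini-Hochberg adjusted, in Python 3.11.15 with scipy 1.17.1, on scripts tested on simulated data. Intervals are exact (Clopper-Pearson) and cover counting error only. Of 356 listed symbols, 352 matched a gene. Members, lists and tests were chosen with earlier results of these data known. Genes are named if they lie at the 3 highest-scoring single-list peaks of a list or at the one with most G-boxes, if they are listed genes at such a peak with a score of 100 or more and a motif, or if they are listed genes next to single-list peaks of 2 or more lists. Alternatives changed the partner and motif distances, scores, windows, gene set and flanks, or left out each list.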

Additional observations from a re-analysis of the deposited data

How the results depend on the processing

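The G-box difference between single-list and partnered peaks kept its direction and passed the test in all 48 alternatives, and so did the intergenic difference in 36 of 40. The PBE-box difference kept its direction and its side of the threshold in 41 of 48, which include alternatives of replicate 3 that, like its main value, did not pass. No paired analysis was possible because each list was already made from P3M and WT libraries of the same number, and no separate WT values were used. For the settings below, the cause was not tested.

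Counts of called sequences in this section join those more frequent and those less frequent at the summits. With the main settings they were 189, 1187, 0 and 913 in replicates 1 to 4. With only scores of 100 or more in every list, single-list peaks numbered 22, 242, 10 and 1148 in replicates 1 to 4, next to 22, 145, 7 and 937 genes, and 2 and 183 sequences of 6 bases were called against flanks in replicates 1 and 2. The PBE-box difference (single-list minus partnered, in percentage points) was then -12.0, 13.4 and -5.03 in replicates 1, 3 and 4, and the intergenic difference -13.8, 4.00 and -2.79, none of which passed. With as many best-scoring peaks as the shortest list (526), replicates 2, 3 and 4 had 212, 162 and 129 single-list peaks, next to 129, 112 and 102 genes, with 113, 45 and 45 sequences called, and in replicate 4 the PBE-box difference was -3.61 and the intergenic one -5.83, both calls lost. With overlap as the partner rule, replicate 3 had 32 single-list peaks, next to 14 genes. Among intergenic peaks the PBE-box difference of replicate 1 was -7.64, a call lost, and with motifs within 50 bp that of replicate 3 was -15.1, a call gained.

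The G-box difference between overlapping and other single-list peaks changed sign most often. It was -0.748, -8.29 and -6.21 for best-scoring peaks of replicates 1, 3 and 4, -21.2 and -3.76 for intergenic peaks of replicates 1 and 2, -3.13 and -0.0880 for motifs within 50 bp, -7.96 and -2.49 with partners under 200 bp, -0.594 in replicate 1 with wider windows, and -0.854, -37.5 and -9.61 for scores of 100 or more in replicates 2, 3 and 4. With partners under 50 bp, a limit that brings in peaks called partnered above, it was 18.1, 16.4, 34.7 and 16.1 in replicates 1 to 4 and passed the test. The G-box difference by score was 35.6 in replicate 1 for best-scoring peaks and 40.4 there with partners under 50 bp, both calls gained, -6.14 in replicate 3 with partners under 50 bp, -3.23 in replicate 3 with overlap, and 9.60 and 5.67 in replicates 2 and 4 for intergenic peaks, both calls lost.

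Leaving out each replicate in turn, replicate 1 had 190 to 308 sequences called, 92 to 152 genes and a G-box difference by score of 24.6 to 32.3, which passed each time. Replicate 3 had 54 to 175 single-list peaks, 32 to 118 genes, 0 to 40 sequences and a PBE-box difference of -15.7 to -7.75, which passed only without replicate 2. In replicate 4 the difference by overlap was 1.57 to 23.6, which passed only without replicate 2, at the highest value.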
